A study of Homo sapiens with 4 samples.

Results

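The clustered protocadherins are 53 genes on chromosome 5 that lie side by side in 3 clusters: 15 in the alpha cluster, 16 in the beta cluster and 22 in the gamma cluster. They were found by gene name among the 31907 names listed in the 4 count files, and pseudogenes of the family were left out. All 53 were listed in at least 1 library. The libraries were made from HGC-27, an established human cell line of undifferentiated gastric carcinoma. 2 libraries came from cells given PBS, the vehicle, and 2 from cells given 200 ng/ml recombinant IL-17B (rIL-17B), a cytokine of the IL-17 family, each for 48 h. By their labels all 4 libraries shared the cell line, the time and the Smart-seq2 method, in which an oligo-dT primer starts the cDNA and PCR amplifies it. The study asked what the cytokine does to these cells, and a single line stands for gastric cancer here. Nothing in the labels says whether replicates were separate cultures, so p-values measure only the spread between these libraries.

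Clustered protocadherins are single-pass membrane proteins with cadherin repeats that bind the same isoform on a facing cell. They are best known from neurons, where each cell uses its own combination of isoforms and reads the match as a sign of self. In the alpha and gamma clusters each gene has its own promoter and a large variable exon that is spliced to constant exons shared by the whole cluster, whereas a beta gene is a single coding exon with no constant region. The last genes of the alpha and gamma clusters are the C types, which many neurons use together, while the other genes, called alternate isoforms, are picked by chance from cell to cell under CTCF, cohesin and DNA methylation.

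On GRCh38, with GENCODE 29 gene models, the alpha cluster covers chr5:140786136-141012347, the beta cluster chr5:141051135-141249365 and the gamma cluster chr5:141330571-141512981. All 15 alpha genes share 2866 exonic bases and all 22 gamma genes share 2181. The 16 beta genes share none with each other. PCDHGB4 and PCDHGA8 share 4447 exonic bases, the constant exons included. How the authors' counting treated a read on a shared base is not given in the sources used here. PCDHA2 had 0 counts in both PBS replicate 1 and rIL-17B replicate 2, where PCDHAC1, with the same constant exons, had 116 and 155, so reads on constant exons were not added to every gene of a cluster. The counts therefore follow mainly the variable exons. Genes of a cluster resemble each other in sequence, some beta genes overlap exons of other annotated genes, and the use of strand is not given, so counts of overlapping or near-identical genes remain uncertain.

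Each gene has a promoter of its own, so a short stretch around the letters CGCT in it is shown for the genes that the results turn on. Whether these letters work as an element in each of the genes was not tested. Promoter sequence from 250 bases before to 50 after the start was matched for 47 of the 53 genes in RefSeq (GRCh38.p14). PCDHA3, PCDHA13, PCDHB6, PCDHB11, PCDHGA12 and PCDHGC5 had no entry. The letters CGCT stood on the gene strand in 46 of the 47, against 54.1% of all 27305 promoters of the same length, and on either strand in 46 against 69.4%. The core letters of a CTCF site, searched as a single strict pattern, stood on either strand in 1 of the 47 (PCDHB9), against 2.49% of all promoters. In PCDHB9 the match lies inside the stretch shown for that gene below, so the searches do not count separate places there. The strict pattern misses any site that departs from it by a letter. Its count therefore does not show how many of these promoters hold a CTCF site. In each line below 14 bases come before CGCT, which is in capitals, and 8 come after. All read 5′ to 3′ on the plus strand.
The 5 alpha genes with the highest mean CPM over the 4 libraries follow, without division by length. PCDHA12 is among them through its 16 counts in rIL-17B replicate 1. Its PBS mean was 0.259 CPM, below PCDHA4 at 0.555 and PCDHA1 at 0.528.
PCDHA10 (chr5:140855843-140855868): aagccaccggatgtCGCTgtcgtcca
PCDHA11 (chr5:140868885-140868910): taggcgcaaggtgtCGCTctttactt
PCDHA12 (chr5:140875246-140875271): cagtcacatgatgtCGCTctacactc
PCDHAC1 (chr5:140926222-140926247): ctagaaggtgtggtCGCTcacgttca
PCDHAC2 (chr5:140966367-140966392): gagcagtccgggttCGCTgtccgcca
The beta genes follow.
PCDHB7 (chr5:141172568-141172593): aaaacgcaaggtggCGCTgctggcta
PCDHB9 (chr5:141187076-141187101): aagccacaaggtggCGCTgcagactg
PCDHB10 (chr5:141192301-141192326): aggccacacggtggCGCTgcaggcta
PCDHB14 (chr5:141223265-141223290): gagacacatggtggCGCTacaggata
PCDHB16 (chr5:141182312-141182337): agaacgcgtggtggCGCTgcaggtta
The gamma genes follow.
PCDHGA10 (chr5:141412933-141412958): aggactctgagcgcCGCTgttcacct
PCDHGB2 (chr5:141359923-141359948): aaacctctgagcgtCGCTgttggtca
PCDHGB7 (chr5:141417609-141417634): cagtgcagagcaagCGCTgacgccgg
PCDHGC3 (chr5:141475882-141475907): gggactctgtgtgcCGCTgtcggcca
PCDHGC4 (chr5:141484954-141484979): ctgagcccgggagcCGCTgtctgcca

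Outside CGCT, these stretches were more alike within a cluster than between clusters. Over 22 letters, pairs of beta genes were on average 69.4% identical, pairs of gamma genes 63.9% and pairs of alpha genes 61.3%, while pairs from different clusters were 43.4% to 45.4% identical. Where a promoter held several CGCT, the one most like those of the other members was used. Of all runs of 10 letters that hold CGCT, GGTGGCGCTG was the one that most beta promoters had on the gene strand, 12 of 14, against 0.194% of all promoters, and no alpha or gamma promoter had it. The same search gave TGATGTCGCT in 8 of 13 alpha promoters and GCGCCGCTGT in 9 of 20 gamma promoters, against 0.0330% and 0.0696% of all. These 3 runs were picked from the promoters in which they are counted. The CGCT letters themselves began a median of 59 bases before the start, and in 41 of 46 genes 30 to 85 bases before it. A match of letters is a description and not a bound site.

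The libraries held 12888029 to 17555879 counts on named genes. rIL-17B replicate 1 stood apart from the other 3 libraries in genes far from these clusters. COL1A2, a fibrillar collagen gene, had 87731 and 67635 counts with PBS, and 16 and 82503 in rIL-17B replicates 1 and 2. In a bulk library fewer cells of a kind and less RNA per cell cannot be told apart. DCN and COL1A1, also matrix genes, were far lower there than in the other libraries (35 against 12973 to 17738 counts, and 2993 against 96804 to 115523). The files do not settle whether this library held the same cells as the others, which bears on each of its values below. Results are therefore given for the treated libraries one by one, or with and without replicate 1. A floor of 3 counts was 0.171 to 0.233 CPM (a count divided by its library's total, times 1e6), and floors and intervals cover counting error only, since PCR copies are not independent molecules.

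HGC-27 cells given PBS used members of all 3 clusters. In PBS replicates 1 and 2, 50 of the 53 genes had at least 1 count, and 47 and 44 had at least 3. Divided by the exonic length that no other gene uses, PCDHGC3, a C type of the gamma cluster, had by far the highest level, 14.95 and 22.6 CPM per kilobase. PCDHB14 followed with 3.37 and 4.71, PCDHB10 with 2.60 and 3.75, PCDHGB2 with 2.75 and 3.15, and PCDHB7 with 2.29 and 3.34. PCDHGC3 lay above all of them in both libraries. PCDHB14 was above the other 3 in each library, though its range over the PBS libraries overlapped that of PCDHB10. The ranges of PCDHB10, PCDHGB2 and PCDHB7 overlapped, so their order is not settled. Divided by all exonic bases instead, the PBS mean of PCDHGB2 was 1.60 CPM per kilobase, below PCDHB7 at 2.62 and PCDHB16 at 2.08. PCDHGC3 (11.2) and PCDHB14 (4.04) were the highest by that length too. Among the alpha genes PCDHAC1 (1.79 and 1.98 CPM per kilobase) and PCDHAC2 (1.99 and 1.66) were the highest and did not separate from each other. At the low end, PCDHA2, PCDHA6, PCDHA9 and PCDHB1 had no more than 2 counts in any library.

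**Figure D1:**
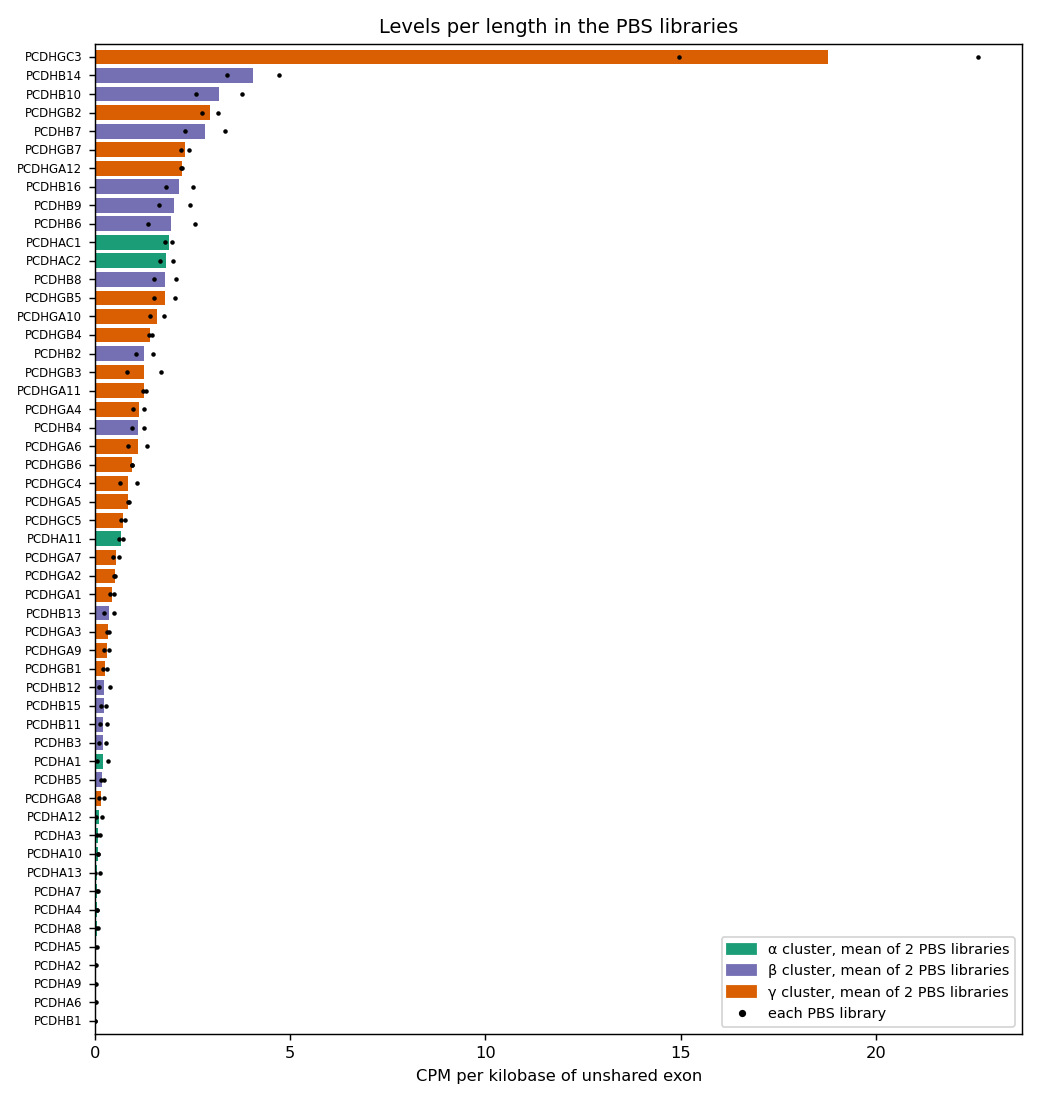
Level in CPM per kilobase of exon used by that gene alone, for the clustered protocadherins in the 2 PBS libraries. PCDHGC3 lies at 14.95 and 22.6, and the next gene, PCDHB14, at 3.37 and 4.71.

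Within a cluster a few genes took much of the signal. PCDHGC3 held 41.3% (95% Wilson interval 39.1% to 43.6%) and 48.9% (46.7% to 51.1%) of the gamma counts in the PBS libraries. PCDHAC1 held 37.3% (32.1% to 42.8%) and 41.4% (35.5% to 47.6%) of the alpha counts, and PCDHAC2 35.05% (29.96% to 40.5%) and 29.5% (24.2% to 35.4%). The 13 alternate alpha genes together summed to 5.41 and 5.66 CPM, less than PCDHAC1 alone. PCDHB14 held 23.8% (21.4% to 26.5%) and 22.8% (20.6% to 25.2%) of the beta counts, and the other beta counts were spread over many genes.

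The clusters differed in how they stood in the rIL-17B libraries. The beta cluster summed to 68.3 and 99.6 CPM in the PBS libraries against 2.33 and 46.3 CPM in the treated ones. Both rIL-17B libraries lay under both PBS libraries, replicate 1 at 2.77% of the PBS mean and replicate 2 at 55.1%. The gamma cluster summed to 117.6 and 150.4 CPM in the PBS libraries against 21.6 and 96.0 CPM in the treated ones, and was likewise lower in both treated libraries, at 16.1% and 71.7% of the PBS mean. The alpha cluster summed to 19.6 and 19.5 CPM in the PBS libraries against 32.1 and 18.0 CPM in the treated ones, so that replicate 1 was above and replicate 2 below the PBS pair. The log2 ratio of the group means was -1.79 for beta, -1.19 for gamma and 0.36 for alpha, and without rIL-17B replicate 1 it was -0.86, -0.48 and -0.12. With 2 libraries against 2, an exact two-sided permutation test cannot give a p under 0.333, so these sums carry no test.

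Across all genes, the quasi-likelihood test of edgeR, with p-values adjusted by the Benjamini-Hochberg method, called 0 of 16361 tested genes (0.0%), and 0 of the 35 clustered protocadherins that passed its filter on low counts. At an unadjusted p under 0.05 it found 226 genes (1.38%) and 0 of these 35. DESeq2 also called 0 genes after adjustment, and at an unadjusted p under 0.05 it found 547 of 31907 genes (1.71%), among them PCDHB8 and PCDHGC3. The 35 were 4 alpha, 11 beta and 20 gamma genes, and the 18 not tested had at most 19 counts in any library. Of the 35, 29 were under the filter's cutoff in rIL-17B replicate 1 and passed through the other libraries, so their counts and medians below are descriptions and not support for a direction. The fitted log2 fold change was negative in 32 of the 35 genes (52.6% of all genes tested), with a median of -1.36 against -0.03 over all genes tested. By cluster the median was -1.82 for beta, -1.25 for gamma and 0.20 for alpha. Without rIL-17B replicate 1 these medians were -0.82, -0.51 and -0.20, so the sign for alpha turned, and over the 35 genes the median was -0.54 against -0.01 over all genes tested. The adjusted p-values of edgeR's quasi-likelihood test lay between 0.661 and 0.857 for the 35 genes.

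Gene by gene, rIL-17B replicate 1 was at least 2-fold lower than both PBS libraries, with 0.5 CPM added to every value, in 28 of the 35 tested genes (17.1% of all genes tested), 10 of them beta genes and 18 gamma genes. It was at least 2-fold higher in 0 (1.57%). With no fold set, it was lower than both in 32 (40.8%) and higher in 3 (50.1%), PCDHA11, PCDHAC1 and PCDHAC2. rIL-17B replicate 2 was at least 2-fold lower in 2 of the 35 (0.134%), PCDHB4 and PCDHB8, and at least 2-fold higher in 0 (0.0244%). With no fold set, it was lower than both in 27 (36.1%) and higher in 2 (37.0%), PCDHAC1 and PCDHGA9. Both treated libraries were lower than both PBS libraries in 25 of the 35 (27.5%) and higher in 1, PCDHAC1 (31.5%). Over all 53 genes the first of these counts was 32 and the second 1. The genes this adds were not tested and had at most 19 counts in any library. The shares given here are over tested genes only, so none stands beside the counts over all 53. The PBS libraries themselves differed by a median of 0.33 on the log2 scale over the 35 genes, by at most 0.88 (PCDHGB3), and by 2-fold in none.

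**Figure D2:**
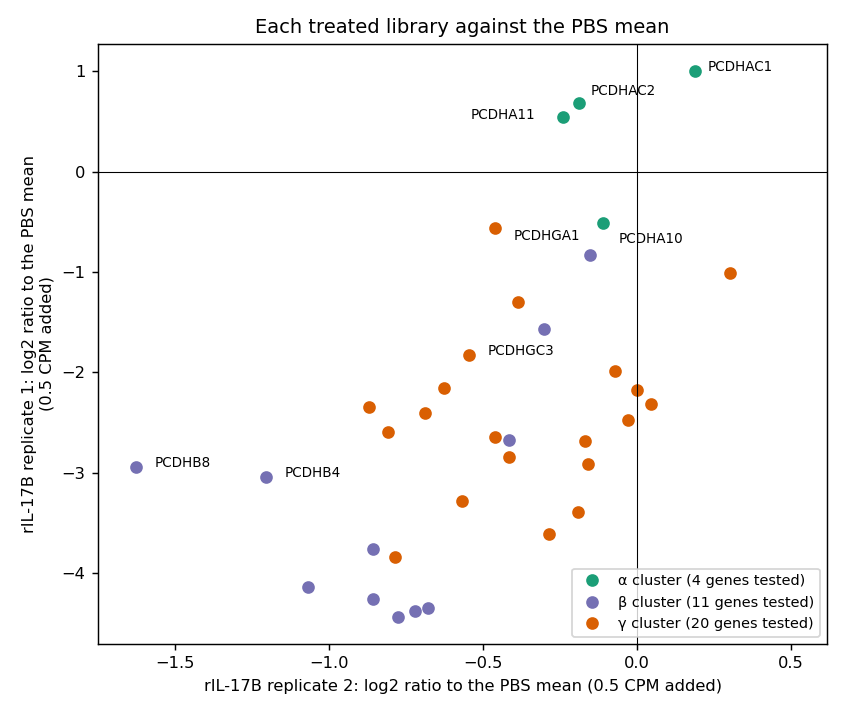
Log2 ratio to the PBS mean, with 0.5 CPM added, of the 35 tested clustered protocadherins in rIL-17B replicate 2 (x axis) and rIL-17B replicate 1 (y axis), coloured by cluster. The median beta gene lies at -0.78 on x and -3.76 on y, the median gamma gene at -0.40 and -2.44, and the 4 alpha genes have medians of -0.15 and 0.61.

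The beta genes encode protocadherins without the constant cytoplasmic region. PCDHB14, the beta gene with the most counts, had 259 and 293 counts with PBS and 7 and 211 with rIL-17B, which is 16.3, 22.7, 0.479 and 12.02 CPM. Both treated libraries were below both PBS libraries, as in 27.5% of all genes tested, and far apart from each other. Its log2 fold change was -1.65 (SE 1.5, adjusted p = 0.669, edgeR's quasi-likelihood test).

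PCDHB16, PCDHB10, PCDHB7 and PCDHB9 had the same order of libraries. PCDHB16 had 140, 155, 1 and 97 counts in PBS replicates 1 and 2 and rIL-17B replicates 1 and 2, and the single count was 0.668% of the pooled PBS level (95% exact counting interval 0.0169% to 3.75%). PCDHB10 had 134, 157, 0 and 102 counts, at least 50.2-fold lower in rIL-17B replicate 1 than the PBS mean against the floor of 3 counts in that library. PCDHB7 had 128, 151, 0 and 102 counts (at least 48.1-fold lower), and PCDHB9 had 106, 128, 0 and 65 (at least 40.4-fold lower). In all 4 genes both treated libraries were lower than both PBS libraries, as in 27.5% of all genes tested. In these genes rIL-17B replicate 2 was at 44.6% to 58.8% of the PBS mean. Their edgeR log2 fold changes were -1.89 (SE 1.75), -1.82 (SE 2.02), -1.76 (SE 2.02) and -2.16 (SE 1.93), none past the threshold.

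The beta genes with the lowest level in rIL-17B replicate 2 relative to PBS were PCDHB8 and PCDHB4, chosen after their values were seen. PCDHB8 had 66 and 73 counts with PBS and 3 and 22 with rIL-17B. Its log2 fold change was -2.75 (SE 0.98), and of the 35 genes it had the smallest p in edgeR's quasi-likelihood test (unadjusted p = 0.0533 and adjusted p = 0.661). PCDHB4 had 57 and 62 counts with PBS and 1 and 27 with rIL-17B. rIL-17B replicate 2 was at 25.5% of the PBS mean for PCDHB8 and 36.6% for PCDHB4. It was below both PBS libraries in each, as in 36.1% of all genes tested.

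PCDHGC3, a C type of the gamma cluster, had 773 and 948 counts with PBS and 247 and 732 with rIL-17B, or 48.6, 73.6, 16.9 and 41.7 CPM. Both treated libraries were lower than both PBS libraries, as in 27.5% of all genes tested. In rIL-17B replicate 1 it was at 27.7% of the PBS mean, and among the gamma genes PCDHGA1 and PCDHGB1 alone were at a higher percentage. Its share of the gamma counts was 78.2% (73.3% to 82.4%) there, against 43.4% (41.1% to 45.8%) in replicate 2. Its log2 fold change was -1.10 (SE 0.58, adjusted p = 0.661, edgeR's quasi-likelihood test).

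The other gamma C types had lower levels per length, with PBS means of 0.857 CPM per kilobase for PCDHGC4 and 0.722 for PCDHGC5, against 18.8 for PCDHGC3. PCDHGC4, a C type that neurons need to survive in mice, had 28, 39, 1 and 19 counts, and PCDHGC5 had 30, 28, 1 and 20. Each was lower in both treated libraries than in both PBS libraries (27.5% of all genes tested). In rIL-17B replicate 1 the single count was 2.94% (0.0734% to 16.95%) of the pooled PBS level for PCDHGC4 and 3.40% (0.0846% to 19.7%) for PCDHGC5.

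The A and B subtypes of the gamma cluster are its alternate isoforms. The 12 gamma A genes summed to 35.7 and 40.3 CPM in the PBS libraries against 3.63 and 31.2 CPM in the treated ones, and the 7 gamma B genes to 29.7, 31.3, 0.958 and 20.9 CPM. Both subtypes were lower in both treated libraries. PCDHGA10 had 100, 102, 10 and 110 counts, PCDHGA12 92, 76, 5 and 91, PCDHGB2 113, 105, 1 and 74, and PCDHGB7 107, 79, 1 and 91. In CPM rIL-17B replicate 2 was at 88.2% and 88.7% of the PBS mean for the 2 A genes, and at 55.3% and 80.6% for the 2 B genes. At the other end, PCDHGA1, the first gene of the cluster and named here after its values were seen, had 25, 25, 15 and 20 counts and was at 58.5% and 64.9% of the PBS mean in the 2 treated libraries.

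The alpha cluster showed another pattern in rIL-17B replicate 1. PCDHAC1 had 116 and 104 counts with PBS and 232 and 155 with rIL-17B, or 7.29, 8.07, 15.9 and 8.83 CPM. Both treated libraries were above both PBS libraries (31.5% of all genes tested), replicate 2 by a small margin. Its log2 fold change was 0.60 (SE 0.33, adjusted p = 0.661, edgeR's quasi-likelihood test). PCDHAC2 had 109, 74, 152 and 96 counts, or 6.85, 5.74, 10.4 and 5.47 CPM, and PCDHA11, an alternate alpha gene, 33, 31, 51 and 32 counts, or 2.08, 2.41, 3.49 and 1.82 CPM. In these genes replicate 1 was above and replicate 2 below both PBS libraries, so the sign of their fold changes (0.24 and 0.16 on the log2 scale) depends on replicate 1: without it they were -0.21 and -0.29. PCDHA10 had 15, 11, 7 and 14 counts and PCDHA12, which was not tested, 7, 1, 16 and 6. The other 10 alpha genes had at most 12 counts in any library, which is too few to compare.

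**Figure D3:**
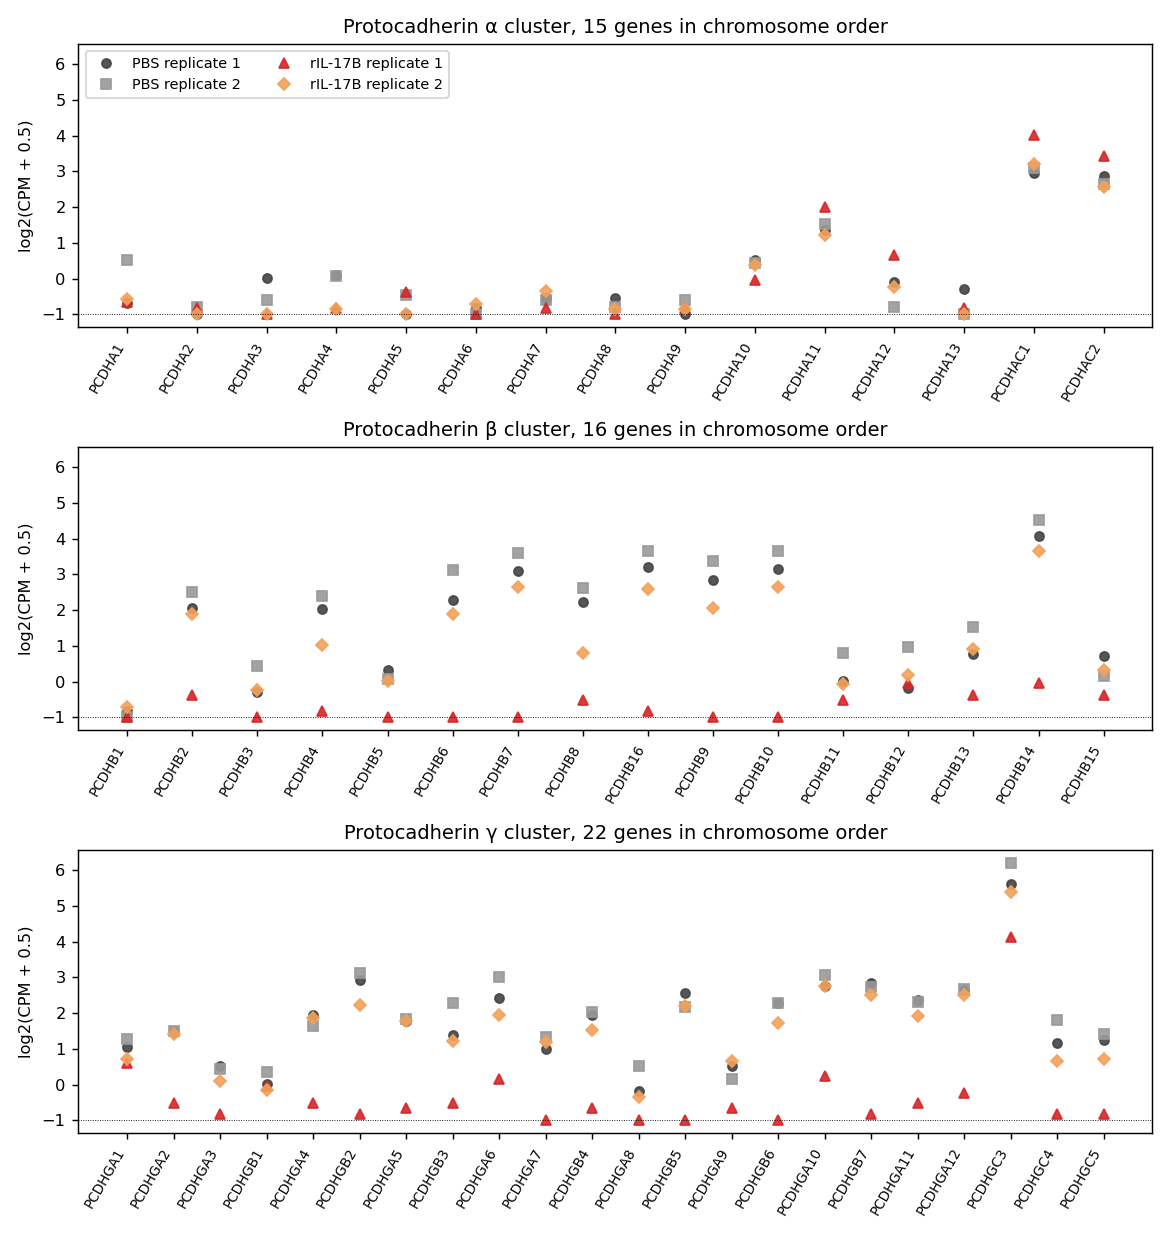
CPM on a log scale of the clustered protocadherins in each of the 4 libraries, in order along the chromosome. In rIL-17B replicate 1 (7 of 16 beta and 4 of 22 gamma genes at 0 counts) most beta and gamma genes lie far under the other libraries, while PCDHAC1 lies above them.

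The set of genes in use was alike in 3 libraries and different in rIL-17B replicate 1. Over the 53 genes the Pearson correlation of log2 CPM (0.5 added) was 0.96 between the PBS libraries and 0.97 and 0.95 between rIL-17B replicate 2 and each of them. It was 0.40 and 0.37 between rIL-17B replicate 1 and the PBS libraries, and 0.47 between the treated libraries. These are descriptions over genes that share a library and its depth. In rIL-17B replicate 1, 39 of the 53 genes had a count and 23 had at least 3, against 49 and 44 in replicate 2. The alpha cluster made up 57.3% (53.9% to 60.6%) of the counts of all 53 genes in rIL-17B replicate 1, and 9.52%, 7.23% and 11.2% in PBS replicates 1 and 2 and rIL-17B replicate 2.

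Without rIL-17B replicate 1, edgeR's quasi-likelihood test set the remaining treated library against the PBS pair and assumed that it varies as they do. Then 504 of 17103 genes were called (2.95%), 2.3% lower and 0.643% higher, and 10 of 42 tested clustered protocadherins were called, all lower. They were 8 beta genes (PCDHB4, PCDHB6, PCDHB7, PCDHB8, PCDHB9, PCDHB10, PCDHB14 and PCDHB16) and the gamma genes PCDHGB2 and PCDHGC3. The log2 fold change was -1.96 (SE 0.38, adjusted p = 5.6e-05) for PCDHB8, -1.15 (SE 0.25) for PCDHB9, -0.69 (SE 0.17) for PCDHB14 and -0.54 (SE 0.11, adjusted p = 0.000111) for PCDHGC3. Without rIL-17B replicate 2 instead, 34 of 43 were called (55.1% of all genes tested). Of these, 32 were lower (31.9% of 17223 genes) and 2, PCDHAC1 and PCDHAC2, higher (23.2%). Each of these fits has 1 treated library and compares that library with PBS. In the fit without rIL-17B replicate 2, genes with few or no counts in the treated library passed the filter through PBS. The genes named as lower without rIL-17B replicate 1 had 22 to 732 counts in rIL-17B replicate 2. There the limit is that 1 treated library remains. The lower calls of both fits are therefore descriptions and not support for a direction. PCDHB4, PCDHB6 and PCDHB8 were named here after their values were seen.

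Genes that act on protocadherin promoters were compared next. CTCF and the cohesin subunits RAD21, SMC1A and STAG1 shape the chromatin loops of these clusters, WAPL releases cohesin, and DNMT1, DNMT3B, SMCHD1 and TRIM28 act in DNA methylation and silencing. Of 26 such regulators, all tested, 0 were called in either direction (0.0% of all genes). A positive log2 fold change was seen in 19 (47.4% of all genes tested) and a negative one in 7 (52.6%). The median was 0.22, against -0.03 over all genes tested. Without rIL-17B replicate 1 the median was 0.08, with 20 positive and 6 negative, and 1 gene, the DNA methyltransferase DNMT3A, was called lower (2.3%). CTCF was at 75.7, 76.2, 115.0 and 88.3 CPM and DNMT3B, which methylates these promoters, at 8.68, 9.70, 18.95 and 10.4 CPM in PBS replicates 1 and 2 and rIL-17B replicates 1 and 2. Both treated libraries lay above both PBS libraries in each gene, as in 31.5% of all genes tested. The log2 fold changes of CTCF and DNMT3B were 0.34 (SE 0.13) and 0.59 (SE 0.33), or 0.21 and 0.18 without replicate 1. STAG1 was at 60.6, 58.2, 86.4 and 71.1 CPM, with a log2 fold change of 0.33 (SE 0.11, unadjusted p = 0.0425 and adjusted p = 0.661, edgeR's quasi-likelihood test) and 0.26 without replicate 1. The fold changes of RAD21, SMC1A, WAPL, DNMT1, SMCHD1 and TRIM28 lay between 0.14 and 0.52 on the log2 scale, and between 0.04 and 0.20 without replicate 1.

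Partners that cleave protocadherins or carry their signal were compared in the same way. Of 25 listed, among them the protease ADAM10, the kinase PTK2 and the WAVE complex, 24 were tested. With all 4 libraries 0 were called. A positive log2 fold change was seen in 10 (47.4% of all genes tested) and a negative one in 14 (52.6%), and the median was -0.06. Without rIL-17B replicate 1 the median was -0.04, against -0.01 over all genes tested. CYFIP2, a WAVE complex subunit, was at 18.5, 24.2, 10.7 and 14.2 CPM, lower in both treated libraries (27.5% of all genes tested). Its log2 fold change was -0.84 (SE 0.28, unadjusted p = 0.0449 and adjusted p = 0.661, edgeR's quasi-likelihood test). Without replicate 1, in a fit with 1 treated library, its log2 fold change was -0.59 (SE 0.16), in the same direction. WASF1, another WAVE complex subunit, ran the other way, at 47.3, 51.9, 72.9 and 58.5 CPM, higher in both treated libraries (31.5% of all genes tested). Its log2 fold change was 0.33 (SE 0.12, not past the threshold), and 0.24 without replicate 1. The log2 fold changes of the GTPase RHOA (0.17, SE 0.14), beta-catenin CTNNB1 (-0.06, SE 0.11) and the WAVE subunit NCKAP1 (-0.07, SE 0.11) were 0.09, -0.06 and -0.03 without replicate 1.

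The protocadherins outside the clusters, which have their own loci, form another list. Of 12 listed, 9 were tested and 0 called, with 8 negative and 1 positive log2 fold change (52.6% and 47.4% of all genes tested) and a median of -1.27. In rIL-17B replicate 1, 6 of the 9 were at least 2-fold lower than both PBS libraries (17.1% of all genes tested), and in replicate 2 none (0.134%). Without replicate 1 the median was -0.47, and PCDH1, PCDH9 and PCDH19 were called lower (2.3%). PCDH10 was at 41.9, 41.0, 0.0684 and 34.4 CPM, where the third value is 1 count. PCDH9 was at 12.4, 16.4, 4.79 and 9.11 CPM, and PCDH7, the exception, at 57.0, 54.0, 100.9 and 63.5 CPM, above PBS in both treated libraries (31.5% of all genes tested).

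Marker genes of other cell types were read out beside the cluster sums, and their lists did not all run the same way. 8 of 10 neural markers had a count, and their summed level was 396.9 and 608.5 CPM in the PBS libraries against 59.8 and 295.6 CPM in the treated ones, the same order of libraries as the beta and gamma sums. OLIG2, a glial lineage factor, was at 39.9, 67.4, 0 and 29.3 CPM, SOX2, a stem and neural progenitor factor, at 75.5, 115.5, 10.9 and 56.6 CPM, and DCX and SOX10 were at 0 in all 4. The 5 fibroblast markers summed to 14453 and 14288 CPM in the PBS libraries against 269.4 and 12294 CPM in the treated ones, the 5 mesenchymal markers to 1042, 1028, 386.6 and 882.3 CPM, and the 5 endothelial markers to 22.4, 30.6, 1.09 and 18.7 CPM. Of the mesenchymal markers, 4 were at least 2-fold lower than both PBS libraries in rIL-17B replicate 1 (17.1% of all genes tested). TWIST1, the other, lay between the PBS libraries in both treated ones, at 13.3, 9.78, 11.7 and 11.7 CPM. The epithelial markers did not run as a set. Of the 5 tested, 3 had a positive and 2 a negative log2 fold change (47.4% and 52.6% of all genes tested). Their sum was 783.9, 791.7, 1825 and 1007 CPM, and KRT8 and KRT18, keratins of simple epithelia, made up most of it. EPCAM was at 3.40, 3.03, 5.34 and 3.87 CPM, higher in both treated libraries (31.5% of all genes tested). KRT19, another keratin, was at 2.96, 3.34, 0.0684 and 3.30 CPM, and CLDN4 had a log2 fold change of -0.34. CDH1, the epithelial cadherin, stayed under 1 CPM in every library. The 6 monocyte markers, listed because the labels' library protocol speaks of monocytes, summed to 8.42 to 10.3 CPM, but their members differed. CSF1R, a growth factor receptor, was at 3.90, 5.59, 8.14 and 6.15 CPM and CD14 at 1.45, 1.55, 0.274 and 1.20 CPM, while PTPRC, the pan-leukocyte marker, was at 2.96, 1.71, 0 and 2.05 CPM. 4 of the 6 (PTPRC, LYZ, ITGAM and FCGR3A) were at 0 in rIL-17B replicate 1. The part of any of these in the protocadherin values was not tested.

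Genes beside the clusters were read out as well. Of 31 protein-coding genes inside or within 500000 bases of the clusters, 25 were tested, and their median log2 ratios to the PBS mean were 0.20 and 0.01 in rIL-17B replicates 1 and 2, against 0.08 and 0.00 over all genes tested. 3 of the 25 (CD14, ARAP3 and PCDH1) were at least 2-fold lower than both PBS libraries in rIL-17B replicate 1 (17.1% of all genes tested), and none in replicate 2 (0.134%). TAF7, a general transcription factor gene between the beta and gamma clusters, was at 120.3, 125.7, 138.3 and 125.2 CPM. DIAPH1, the next of these genes after the gamma cluster, was at 172.8, 181.3, 317.6 and 193.3 CPM. Its log2 ratio of 0.84 in rIL-17B replicate 1 was the highest of the 25. HDAC3, a histone deacetylase gene that follows DIAPH1, was at 42.3, 45.0, 50.02 and 43.8 CPM. These genes were named after their values were seen.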

How the data were processed

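HGC-27 RNA was sequenced in 4 libraries. The authors deposited counts, whole reads per gene name without normalization. The submitters' processing notes name hg38, Bowtie2 2.2.3, HISAT2 2.1.0, TopHat2 and HTSeq 0.6.0, while annotation, strand and counting mode are not given in the sources used here. Names were joined over libraries with missing names at 0. Repeated names (83 to 98 per library) were kept once, and 22 to 25 date-like names per library were dropped. CPM used the remaining totals. edgeR 4.0.16 (R 4.3.3; TMM, filterByExpr, quasi-likelihood F test, Benjamini-Hochberg adjustment, two-sided, threshold 0.05) was fitted on all genes by group and tested on simulated data. An SE is the size of the log2 fold change divided by the square root of F. DESeq2 1.42.0, upper-quartile factors, other filters and pseudocounts, a replicate block and leaving out each library were alternatives. The text names the 5 genes of each cluster with the highest mean CPM, the C types, members with an unadjusted p under 0.05, and, of each pathway list, the 3 highest genes and the 2 of smallest p, with CTCF, RAD21, WAPL, SMCHD1 and DNMT3B. Others were named after their values were seen. Members and lists were chosen with earlier results of these data known.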

Additional observations from a re-analysis of the deposited data

How the results depend on the processing

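DESeq2, upper-quartile factors, no filter on low counts, a minimum of 10 counts in every library, summed repeated names and an adjusted p under 0.1 all called 0 genes, as did leaving out either PBS library, with smallest adjusted p-values of 0.551 to 0.993. With a replicate block 0 genes were called too, 173 had an unadjusted p under 0.05, and the median of the 35 genes was -2.13. Whether replicates of the same number were paired is not known. With 2 libraries per group, both replicate numbers give the same correlation of deviations from the group means (0.08). That value cannot show whether they were paired. The minimum of 10 counts left 6 members, with a median of -0.34. Genes at an unadjusted p under 0.05 ranged from 2 without either PBS library to 879 with no filter on low counts, and none of these fits called a member. Leaving out each library gave 0 to 9489 genes called, 0 to 34 members called and a median log2 fold change of -4.51 to -0.54 (-4.19 in place of -4.51 with the 7 members at 0 set at their bound). The log2 ratio of summed CPM ran from -0.12 to 0.72 for alpha, -5.17 to -0.86 for beta and -2.63 to -0.48 for gamma. Fold changes ran from -0.21 to 0.58 for PCDHAC2 and from -0.29 to 0.51 for PCDHA11, both negative without rIL-17B replicate 1. Members at least 2-fold higher in rIL-17B replicate 1 ran from 0 to 1, and those at least 2-fold lower in replicate 2 from 2 to 9 (9 without PBS replicate 1), or 1 with 1 CPM added. Beyond the libraries left out, the cause was not tested. With every count under 3 set at 3, the median ratio in rIL-17B replicate 1 was -4.94 for beta (6 of 11 genes under 3) and -3.71 for gamma (11 of 20).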

Other observations

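Pseudogenes of the family, which the naming rule leaves out, had few counts. PCDHB17P, PCDHB18P, PCDHGB8P and PCDHGB9P had 3 to 9 counts in each of the PBS libraries and in rIL-17B replicate 2, and 0 counts in the other treated library. PCDHB19P had 1, 0, 1 and 0 counts in PBS replicates 1 and 2 and rIL-17B replicates 1 and 2. These counts are too low for a comparison.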
